A study of Mus musculus with 6 samples.

Results

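The genes described here are 123 members of the solute carrier superfamily that Raw264.7 macrophages expressed with and without a knockdown of *Etv5*. They were chosen by symbol and level from 24786 gene symbols. Of 374 symbols of the form Slc, number, letter and number, 63 symbols of the Slc25 and Slc7 families and 8 further symbols (*Slc2a1*, *Slc3a2*, *Slc11a1*, *Slc11a2*, *Slc16a1*, *Slc16a3*, *Slc39a14* and *Slc40a1*) were set aside. Of the 303 symbols left, 123 reached 1 RPKM (a read density that corrects for gene length and for the mapped reads of a library) in at least 3 of the 6 libraries, and 180 did not, 49 of them being listed at 0 in every library. The members fall into 37 families. Among them, 4 carry an Slc symbol without being transporters by that symbol (*Slc9a3r1* and *Slc9a3r2*, scaffold proteins that bind a sodium-proton exchanger, *Slc4a1ap* and the pseudogene *Slc2a4rg-ps*).

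The study asked which genes depend on ETV5, a transcription factor of the ETS family, in macrophages. RNA was sequenced from Raw264.7 cells infected with a lentivirus that carried either a control shRNA or one directed at *Etv5*, in groups named sh-NC and sh-*Etv5* with 3 libraries each. Both groups share the line, which the labels describe as raised from a tumor induced by Abelson murine leukemia virus, with C57BL/6 as the strain and a postnatal age, and both received virus and Lipofectamine, a transfection reagent. The labels give expression at 24 or 48 h after infection, whereas the study calls the sequenced cells stably transfected and describes selection with puromycin. Which of the *Etv5* shRNAs was sequenced is not stated, so effects of *Etv5* and effects of that one shRNA cannot be told apart. The labels do not state if libraries of a group stem from separate cultures, so p-values measure the spread between libraries, which may be technical.

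Solute carriers are membrane proteins that move ions, metals, amino acids, sugars, nucleosides, vitamins and lipids across the plasma membrane and the membranes of organelles, either down a gradient or coupled to an ion gradient. Macrophages use them to take up nutrients, to empty lysosomes after digesting what they engulf, to supply the Golgi with activated sugars for glycosylation and to move zinc, copper and other metals between compartments. Each numbered family shares sequence, and most families share a class of substrate.

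*Etv5* itself measured 9.18, 9.89 and 9.39 RPKM in sh-NC against 5.19, 4.91 and 5.28 RPKM in sh-*Etv5*, so its mRNA fell by 0.78 on the log2(RPKM + 1) scale and remained present (limma adjusted p = 2.74e-07). The cells carried the macrophage transcript set, with 9 of 10 markers at or above the level filter and *Mrc1* under it. The summed macrophage markers ranged from 4490 to 4616 RPKM in sh-NC and from 3587 to 3704 RPKM in sh-*Etv5*. *Lyz2* carried most of that sum (2810 to 2881 against 1981 to 2086 RPKM), and single markers went both ways, with *Csf1r* at 424 to 433 against 236 to 249.8 RPKM and *Itgam* at 32.9 to 34.3 against 119 to 133 RPKM. Markers of other cells were near 0, except that 1 of 6 neutrophil markers, *S100a8*, passed the filter and the neutrophil sum went from 0.123 to 0.532 RPKM in sh-NC to 15.6 to 19.7 RPKM in sh-*Etv5*, with *Ly6g*, *S100a9* and *Elane* at 0. The fibroblast sum went from 0.0112 to 0.0238 RPKM to 0.764 to 1.10 RPKM with none of 6 markers past the filter and *Col1a2* at 0, and no B cell, T cell, epithelial or adipocyte marker passed. The part of these shifts in the results was not tested, and in bulk RNA fewer cells of a kind and less RNA per cell cannot be told apart. Libraries of a group correlated at 0.998 or above, and libraries of different groups at 0.974 to 0.975, over log2(RPKM + 1) of all genes.

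Sequences before the start sites of members were examined because ETV5 is a DNA-binding factor. The first pair of sequences below are the 250 bases before the RefSeq start of *Slc31a2*, the largest called rise with such a sequence, and of *Slc44a1*, the largest called fall on the log2(RPKM + 1) scale, on the plus strand of GRCm38.p6. The *Slc31a2* window (chr4:62286179-62286428) lies between annotated exons inside the GENCODE span of the gene, and the *Slc44a1* window (chr4:53440163-53440412) ends directly before the gene. Capitals mark a match to the letters of an antioxidant response element in *Slc31a2* and of a metal response element in *Slc44a1*. Neither window holds the ETS letters CCGGAAG on either strand.
Slc31a2: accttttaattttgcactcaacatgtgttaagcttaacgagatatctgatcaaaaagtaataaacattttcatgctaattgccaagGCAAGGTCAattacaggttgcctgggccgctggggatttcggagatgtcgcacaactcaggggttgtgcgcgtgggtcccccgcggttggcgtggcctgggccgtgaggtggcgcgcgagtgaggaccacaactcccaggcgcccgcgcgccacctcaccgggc
Slc44a1: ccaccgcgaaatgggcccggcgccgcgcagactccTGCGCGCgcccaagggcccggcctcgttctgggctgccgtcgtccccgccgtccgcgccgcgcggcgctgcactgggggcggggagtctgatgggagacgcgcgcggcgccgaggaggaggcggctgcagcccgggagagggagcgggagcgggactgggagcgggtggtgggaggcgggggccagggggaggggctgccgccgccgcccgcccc

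The ETS letters were searched within the window from 250 bases before to 50 bases after a start site. They occurred in 22 of 87 members that were tested below and had a promoter sequence (25.3%). Of these members, 13 were called and 9 were not called. The letters occurred in 9 of 43 members called higher, 4 of 25 called lower and 9 of 19 not called. In 4 of the called members the match, together with 11 bases on each side, lay before the start and outside annotated exons. These 4 stretches of 29 bases are shown because they include both members that rose (*Slc12a7* and *Slc36a4*) and members that fell (*Slc9a8* and *Slc35c1*). Capitals mark the ETS letters or their reverse complement. The *Slc12a7* stretch (chr13:73763583-73763611, plus strand) has the letters from 66 bases before a RefSeq start that lies inside the annotated gene. The *Slc36a4* stretch (chr9:15709587-15709615, plus strand) has them from 140 bases and the *Slc9a8* stretch (chr2:167421663-167421691, plus strand) from 36 bases before the start, both outside the gene. The *Slc35c1* stretch (chr2:92459897-92459925, minus strand) has them from 120 bases before a start inside the gene.
Slc12a7: gcgtggtcgttCCGGAAGcctcccgaccc
Slc36a4: cgaggccctttCTTCCGGcatgcgaagcc
Slc9a8: cgcagcggaaaCCGGAAGcagccgccggc
Slc35c1: tccggggactcCCGGAAGaagagggcagg

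Of all genes with a RefSeq promoter, 9.93% held the ETS letters in that window, and of the expressed genes 23.4% did. The other letters searched, on both strands, were AP-1 (TGANTCA, 8.97% of all promoters), metal response element (TGCGCNC, 17.0%) and antioxidant response element (TGACNNNGC, 14%), and AP-1 and antioxidant letters can share bases. Only 87 of the 116 members tested below had a promoter in the table, fewer than the 80% needed, so a comparison of motif shares between members that rose and fell is void. A match describes letters and is not a binding site.

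Expression of the members was compared on log2(RPKM + 1), which understates the change of low genes, with limma across all genes. The test covers 116 members that reached 1 RPKM in a library of each group. The other 7 passed the level rule through one group alone and had to differ, so their values are given without a test. A gene was called when its p-value, adjusted by Benjamini-Hochberg over all genes, was under 0.05. Among genes expressed in both groups 31.8% were called higher and 41.5% lower in sh-*Etv5*. Among the 116 members, 58 were called higher and 35 (30.2%) lower, and 23 were not called. Calls in either direction covered 80.2% of the members and 73.3% of the genes. Counts by substrate group or family below stand beside these shares, and no group was tested as a set. The median log2 fold change was 0.15 for the members and -0.06 for the 10340 genes expressed in both groups. Most calls were small, with 52 of 93 under 0.5 in absolute log2 fold change, 9 members (7.76%) above 1 against 4.81% of genes and 6 (5.17%) below -1 against 2.74% of genes. The libraries of both groups did not overlap for 99 members (85.3%) against 75.5% of genes. With 3 libraries a group, exact permutation cannot give a p below 0.1, so single members rest on the fit across all genes.

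The summed level of the 116 tested members was 1915, 1870 and 1905 RPKM in sh-NC and 2263, 2295 and 2228 RPKM in sh-*Etv5*. RPKM summed over all genes was also higher in sh-*Etv5*, at 330454 to 340257 against 320462 to 322949 in sh-NC. Without *Slc15a3*, the tested members made up 0.575% to 0.587% of that total in sh-NC and 0.587% to 0.622% in sh-*Etv5*, so 1 sh-*Etv5* library all but touched the sh-NC range. The plot of group means shows that most members stayed near the line of equal levels while a few left it in both directions.

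**Figure D1:**
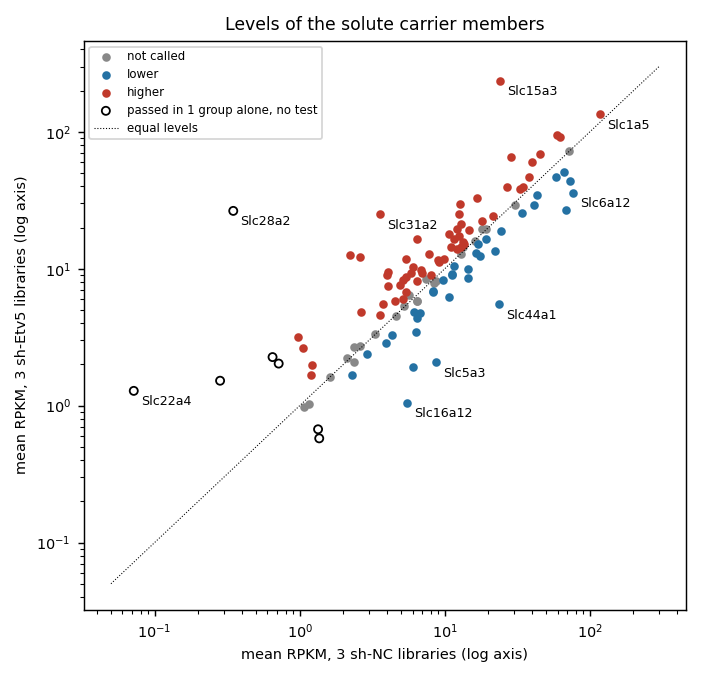
Mean RPKM of each of the 123 solute carrier members in 3 sh-NC libraries (x axis, log scale) and 3 sh-Etv5 libraries (y axis, log scale), where 1 point is 1 gene, filled colors give the limma call and open circles are the 7 members that passed the level rule through 1 group alone. Slc15a3 (24.0 against 237 RPKM) and Slc28a2 (0.348 against 26.5 RPKM) lie far above the line of equal levels, and Slc16a12 (5.46 against 1.05 RPKM) and Slc44a1 (23.5 against 5.51 RPKM) lie far below it.

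Amino acid and peptide carriers held the largest rise among the tested members. *Slc15a3* encodes an endolysosomal carrier that exports histidine and short peptides, among them bacterial muramyl peptides, into the cytosol. *Slc15a3* stood at 24.2, 24.3 and 23.4 RPKM in sh-NC and at 242, 241 and 229 RPKM in sh-*Etv5*. It rose 9.90-fold (log2 fold change 3.25 ± 0.0359 SE, limma adjusted p = 7.32e-14), with no overlap between groups, and became the most abundant of the members. Of its exonic bases, 28.1% also belong to *Tmem132a* on the opposite strand, which itself went from 5.11 to 5.39 RPKM to 15.3 to 17.1 RPKM. The other endolysosomal member of the family, *Slc15a4*, known for its place in nucleic acid sensing by Toll-like receptors, went the other way, from 17.5, 17.6 and 17.6 RPKM to 11.9, 12.5 and 12.7 RPKM, and fell by 0.47 (limma adjusted p = 2.43e-06). *Slc15a3* lies on chromosome 19 (10839727 to 10859362, plus strand) and *Slc15a4* on chromosome 5 (127595664 to 127632897, minus strand).

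Of the 19 amino acid and peptide carriers tested, 12 rose, 6 fell and 1 was not called, with a median log2 fold change of 0.22. Over all genes expressed in both groups, 31.8% were called higher and 41.5% lower. *Slc6a9*, the glycine transporter GLYT1, stood at 2.25, 1.96 and 2.42 RPKM in sh-NC and at 12.8, 13.2 and 11.6 RPKM in sh-*Etv5* (5.67-fold, log2 fold change 2.08, limma adjusted p = 8e-10). Its exons overlap 3 other genes over 30.2% of their bases, and of these *B4galt2* and *Ccdc24* were under 0.2 RPKM in every library and *Gm17114* was not analysed here. *Slc1a4*, which exchanges serine, alanine and other small neutral amino acids, stood at 2.48, 2.79 and 2.53 RPKM in sh-NC and at 12.2, 11.9 and 12.4 RPKM in sh-*Etv5* (4.68-fold, log2 fold change 1.87, limma adjusted p = 3.5e-10). Neither gene overlapped between groups. *Slc1a5*, the related glutamine exchanger, was already the most abundant member in sh-NC at 121, 113 and 121 RPKM and reached only 137, 136 and 130 RPKM, a called rise of 0.18.

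Within the Slc38 family of sodium-coupled neutral amino acid transporters, 5 of 6 tested members rose and none fell. *Slc38a7*, a lysosomal glutamine exporter, stood at 13.2, 12.3 and 13 RPKM in sh-NC and at 30.2, 30.3 and 28.2 RPKM in sh-*Etv5* (log2 fold change 1.14). *Slc38a6* stood at 3.96, 3.95 and 4.37 RPKM in sh-NC and at 9.25, 9.16 and 10.2 RPKM in sh-*Etv5* (1.05), though 22.8% of its 50-base stretches also occur in other transcripts. *Slc38a9*, the lysosomal arginine sensor, rose by less, from a mean of 1.22 ± 0.0686 to 1.99 ± 0.294 RPKM (SD, n = 3). *Slc38a2*, a broad importer known to respond to amino acid shortage, was not called and stood at 70.3, 72.5 and 71.8 RPKM in sh-NC and at 68.6, 74.6 and 74.8 RPKM in sh-*Etv5*, with a log2 fold change of 0.02 (95% interval -0.07 to 0.11). It lies 44479 bases from *Slc38a1* on chromosome 15, which rose by 0.19. The proton-coupled lysosomal and endosomal carriers *Slc36a1* and *Slc36a4* also rose, by 0.45 and 0.44.

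Carriers of amino acid derivatives in the Slc6 family split, with 2 of 5 higher and 3 lower. Beside *Slc6a9*, the creatine transporter *Slc6a8* rose, from 6.70, 5.86 and 6.62 RPKM in sh-NC to 17.0, 16.8 and 15.6 RPKM in sh-*Etv5* (log2 fold change 1.24). *Slc6a12*, which takes up betaine and GABA, was among the most abundant members of control cells at 76.7, 76.8 and 75.8 RPKM and stood at 36.3, 35.4 and 36.2 RPKM in sh-*Etv5* (log2 fold change -1.07, limma adjusted p = 2.98e-10). Its neighbor *Slc6a13*, a GABA and taurine carrier 5343 bases away on chromosome 6, fell by 0.25. The taurine transporter *Slc6a6* stood at 58.2, 58.5 and 59.3 RPKM in sh-NC and at 45.3, 50.7 and 43.9 RPKM in sh-*Etv5* and fell by 0.33. Of the exporters, *Slc43a2*, which carries branched-chain and other large neutral amino acids, stood at 6.45, 5.88 and 5.85 RPKM in sh-NC and at 1.96, 2.05 and 1.73 RPKM in sh-*Etv5* (log2 fold change -1.28). The aromatic amino acid carrier *Slc16a10* fell by 0.31.

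**Figure D2:**
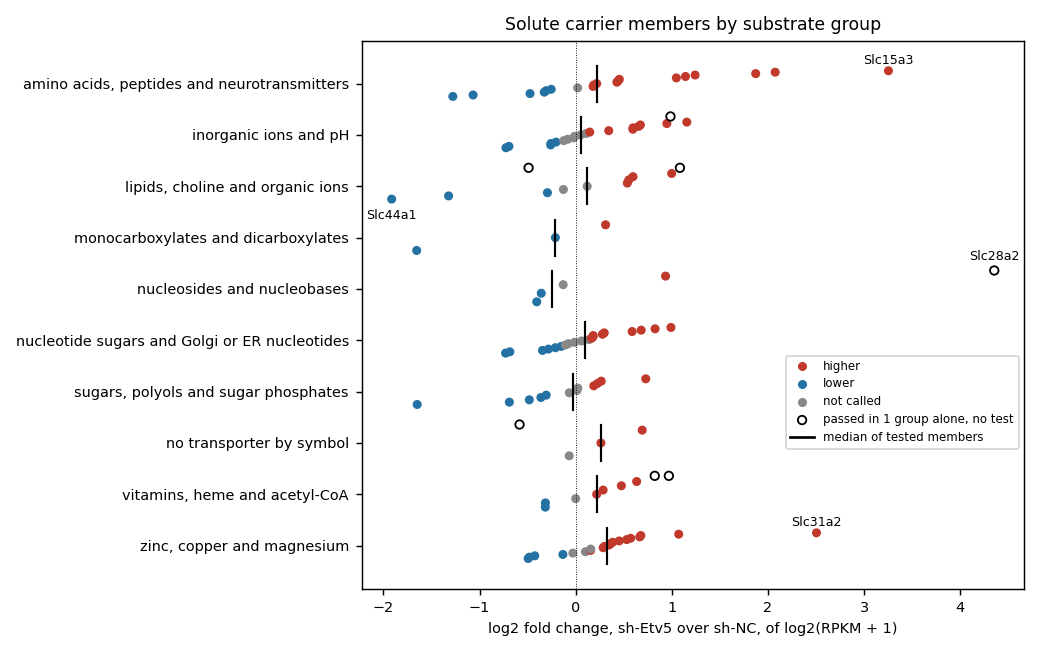
Log2 fold change of log2(RPKM + 1), sh-Etv5 over sh-NC, of each member (x axis) by substrate group (y axis), with 1 point per gene, colors for the limma call, open circles for the members without a test and a black bar for the median of the tested members of a group. Medians ran from -0.24 for nucleosides to 0.33 for zinc, copper and magnesium, while single members such as Slc15a3 (3.25), Slc31a2 (2.51) and Slc44a1 (-1.91) lay far from their group's median.

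The zinc, copper and magnesium carriers among the members mostly rose, with *Slc11a1*, *Slc11a2*, *Slc39a14* and *Slc40a1* set aside. Of the 20 zinc, copper and magnesium transporters tested, 13 were higher, 4 lower and 3 not called, with a median log2 fold change of 0.33. Over all genes expressed in both groups, 31.8% were called higher, 41.5% lower and 73.3% in either direction. *Slc31a2*, a copper transporter of endosomes and lysosomes, stood at 3.72, 3.61 and 3.42 RPKM in sh-NC and at 25.3, 24.2 and 25.6 RPKM in sh-*Etv5*. It rose 6.98-fold (log2 fold change 2.51 ± 0.0516 SE, limma adjusted p = 1.07e-11) without overlap. *Slc31a1*, the main copper importer of the plasma membrane and a neighbor 62316 bases away on chromosome 4, stood at 13.5, 12.9 and 12.5 RPKM in sh-NC and at 13.9, 15.4 and 14.4 RPKM in sh-*Etv5*, a rise of 0.16 (limma adjusted p = 0.0199). That call was lost without sh-NC library 2 (limma adjusted p = 0.0532), sh-NC library 3 (0.0773) or sh-*Etv5* library 2 (0.0745), and after rescaling to the same sum (log2 fold change 0.10, limma adjusted p = 0.133). Copper carriers of the same locus thus differed widely in the size of their change, and the *Slc31a2* level passed that of *Slc31a1* in sh-*Etv5* cells, on the per-length RPKM scale.

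Zinc enters the cytosol through Slc39 (ZIP) proteins and leaves it through Slc30 (ZnT) proteins. Of 9 Slc39 members, with *Slc39a14* set aside, 5 rose, 2 fell and 2 were not called. *Slc39a7*, which releases zinc from the endoplasmic reticulum and Golgi, was the most abundant of the zinc, copper and magnesium members. It stood at 60.7, 59.3 and 59.7 RPKM in sh-NC and at 94.5, 95.2 and 97.2 RPKM in sh-*Etv5* (log2 fold change 0.67, limma adjusted p = 9.86e-09). Another annotated gene, *Gm20427*, shares 80.7% of its exonic bases, so reads of both cannot be told apart. At the plasma membrane *Slc39a1* rose by 0.57 and *Slc39a6* by 0.53, while *Slc39a10* stood at 14.6, 14.4 and 14.5 RPKM in sh-NC and at 9.92, 10.4 and 9.73 RPKM in sh-*Etv5* and fell by 0.49. *Slc39a4*, known from zinc uptake in the gut, was scarce, at 0.889, 1.22 and 0.827 RPKM in sh-NC and 3.25, 3.48 and 2.75 RPKM in sh-*Etv5* (log2 fold change 1.07).

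Zinc exporters went both ways, with 3 of 6 Slc30 members higher, 2 lower and 1 not called. *Slc30a1*, which exports zinc across the plasma membrane, stood at 6.78, 6.78 and 6.68 RPKM in sh-NC and at 4.55, 4.61 and 5.16 RPKM in sh-*Etv5* and fell by 0.43. *Slc30a5*, which loads zinc into the secretory pathway, fell by 0.48 from a mean of 41.5 ± 1.02 to 29.5 ± 2.14 RPKM (SD, n = 3). The vesicular carrier *Slc30a4* rose by 0.68 and the Golgi carrier *Slc30a7* by 0.38, and *Slc30a6*, the partner of ZnT5 in a heterodimer, was not called (0.16, 95% interval -0.06 to 0.37). All 3 Slc41 magnesium carriers rose, by 0.29 to 0.45, but the call of *Slc41a1* was lost with no level filter (limma adjusted p = 0.0665) and that of *Slc41a3* after quantile normalization (limma adjusted p = 0.162).

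**Figure D3:**
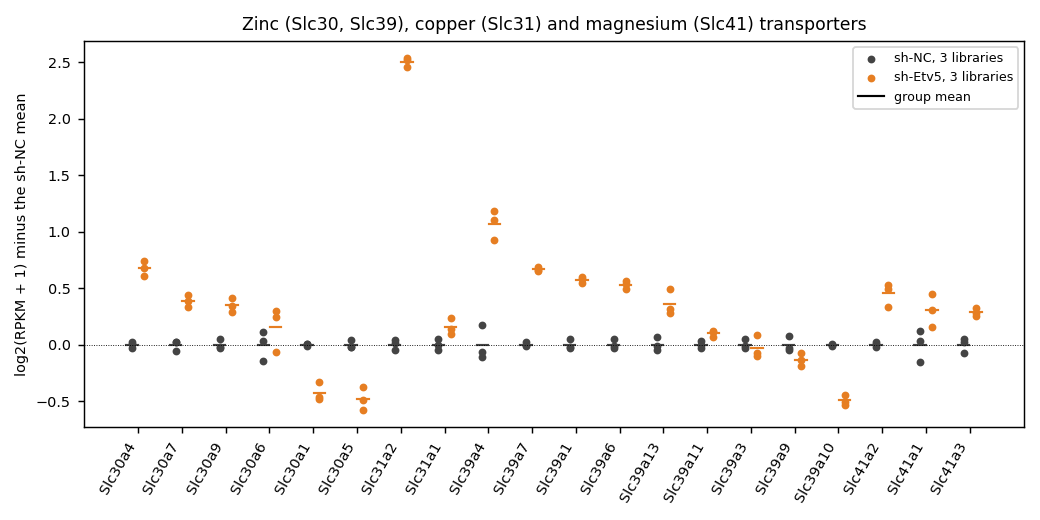
Zinc, copper and magnesium transporters, shown as log2(RPKM + 1) of each library minus the sh-NC mean of the gene (y axis) for 3 sh-NC and 3 sh-Etv5 libraries (points) with group means (bars), ordered by family on the x axis. Slc31a2 is the farthest from 0 (2.51), and Slc30a1, Slc30a5 and Slc39a10 lie below 0 in every sh-Etv5 library.

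Carriers of lipids and organic ions included the deepest fall on the log2(RPKM + 1) scale. The choline transporters of the Slc44 family, which feed choline into phospholipid synthesis, both fell. *Slc44a1* stood at 23.0, 23.5 and 24.1 RPKM in sh-NC and at 5.28, 5.76 and 5.48 RPKM in sh-*Etv5*, and fell by 1.91 on the log2 scale (± 0.0498 SE, limma adjusted p = 7.7e-11). *Slc44a2* stood at 69.5, 66.8 and 69.5 RPKM in sh-NC and at 27.3, 27.5 and 25.7 RPKM in sh-*Etv5*, and fell by 1.32 (limma adjusted p = 2.33e-10). Their libraries did not overlap between groups, and the sh-*Etv5* means were 0.234 and 0.391 of the sh-NC means.

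Fatty acid carriers moved in the other direction. *Slc27a1*, an acyl-CoA synthetase and fatty acid transport protein, had the highest mean of this group over all 6 libraries, at 63.8, 60.8 and 62.6 RPKM in sh-NC and 97.4, 92.5 and 86.6 RPKM in sh-*Etv5* (log2 fold change 0.55, limma adjusted p = 6.35e-07). *Slc27a4* rose by 0.60. *Slc27a3* passed the level rule through sh-NC alone, at 1.36, 1.33 and 1.32 RPKM against 0.474, 0.719 and 0.823 RPKM, with no test. *Slc17a9*, which loads ATP into secretory vesicles and lysosomes, rose by 1.00, from 3.83, 4.0 and 4.25 RPKM to 9.27, 9.0 and 8.85 RPKM, and *Slc17a5*, the lysosomal sialic acid exporter, rose by 0.54. Over the 9 tested members of this group, 4 rose, 3 fell and 2 were not called.

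The organic cation carriers *Slc22a4* and *Slc22a5* are neighbors on chromosome 11, 91463 bases apart, and carry ergothioneine and carnitine. *Slc22a4* stood at 0.0232, 0.0445 and 0.148 RPKM in sh-NC and at 1.18, 1.61 and 1.05 RPKM in sh-*Etv5*. It passed the rule through sh-*Etv5* alone and has no test. *Slc22a5* was not called, at 2.42, 2.37 and 2.36 RPKM against 2.88, 2.94 and 2.25 RPKM (log2 fold change 0.12, 95% interval -0.07 to 0.31).

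Among 3 tested monocarboxylate carriers, *Slc16a12* changed most. This carrier, linked to creatine transport, stood at 5.62, 5.13 and 5.63 RPKM in sh-NC and at 0.978, 1.10 and 1.07 RPKM in sh-*Etv5* (log2 fold change -1.65, limma adjusted p = 3.51e-09), without overlap. Together with *Slc6a8* it makes a pair of creatine-linked carriers that changed in opposite directions. *Slc16a6*, the most abundant of these carriers, stood at 19.1, 19.5 and 19.1 RPKM in sh-NC and at 15.9, 17.3 and 16.3 RPKM in sh-*Etv5* and fell by 0.21, and 23.5% of its exonic bases belong to other genes as well. *Slc16a13* rose by 0.31.

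Nucleoside carriers held the largest ratio between groups of the 123 genes. *Slc28a2*, a sodium-coupled purine nucleoside importer, stood at 0.414, 0.451 and 0.181 RPKM in sh-NC and at 25.9, 26.7 and 26.9 RPKM in sh-*Etv5*. Every sh-NC library lay below 1 RPKM, so the gene passed the rule through sh-*Etv5* alone and has no test. Of its 50-base stretches, 35.4% also occur in *Gm14085*, which went from at most 0.0807 RPKM to at least 9.02 RPKM. The equilibrative carriers of the Slc29 family went the other way or were not called. *Slc29a1*, the main one at the plasma membrane, stood at 35.2, 34 and 33.3 RPKM in sh-NC and at 26.0, 24.1 and 26.6 RPKM in sh-*Etv5* and fell by 0.40. *Slc29a2* fell by 0.36, and the lysosomal *Slc29a3* was not called (-0.13, 95% interval -0.29 to 0.03). The purine nucleobase carrier *Slc43a3* rose by 0.94, from 13, 12.4 and 12.3 RPKM to 24.0, 26.6 and 24.3 RPKM.

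Sugar and polyol carriers were nearly balanced, with 4 of 12 tested members higher, 5 lower and 3 not called. *Slc5a3*, the myo-inositol importer SMIT1, stood at 8.48, 8.73 and 8.76 RPKM in sh-NC and at 2.04, 2.10 and 2.10 RPKM in sh-*Etv5* (log2 fold change -1.65, limma adjusted p = 8.1e-10). Of its exonic bases, 1.46% are shared with *Mrps6*, a mitochondrial ribosomal protein gene that also fell, by 1.31. Inositol, betaine and taurine are osmolytes, and their importers *Slc5a3*, *Slc6a12* and *Slc6a6*, set side by side after their values were seen, were all called lower. Such calls were common, at 41.5% of genes expressed in both groups, and a shared change of osmolyte importers was not tested. Among glucose carriers left after *Slc2a1* was set aside, *Slc2a6* stood highest. It stood at 67.4, 63.3 and 67.7 RPKM in sh-NC and 51.8, 51.3 and 50.6 RPKM in sh-*Etv5*, and fell by 0.36. *Slc2a3*, a high-affinity glucose importer, rose by 0.23 and the urate carrier *Slc2a9* by 0.73, whereas *Slc2a8* was not called (0.01, 95% interval -0.18 to 0.20). Of the sugar phosphate exchangers, *Slc37a2*, a protein known from macrophages, stood at 14.5, 14.3 and 14.7 RPKM in sh-NC and at 8.90, 8.36 and 8.59 RPKM in sh-*Etv5* and fell by 0.69, while *Slc37a4*, the glucose 6-phosphate translocase, rose by 0.19, a call lost without sh-NC library 2 (limma adjusted p = 0.081) or sh-*Etv5* library 1 (0.0778), with no level filter (0.065) and after rescaling to the same sum (0.0841).

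All members of the Slc35 family were grouped under nucleotide sugars and nucleotides of the Golgi or the endoplasmic reticulum, though not each of them carries a nucleotide sugar. Of 20 tested members, 9 rose, 6 fell and 5 were not called, with a median log2 fold change of 0.10. *Slc35a2*, the UDP-galactose carrier, stood at 5.46, 4.95 and 5.78 RPKM in sh-NC and at 11.4, 12 and 11.7 RPKM in sh-*Etv5* (log2 fold change 0.99, limma adjusted p = 6.77e-08). *Slc35b1*, which brings ATP into the endoplasmic reticulum, rose from 46.4, 44.9 and 45.6 RPKM to 69.6, 68.1 and 69.6 RPKM (0.59). *Slc35c1*, the GDP-fucose carrier whose ETS letters are printed above, stood at 22.9, 22 and 21.5 RPKM in sh-NC and at 13.5, 13.8 and 12.8 RPKM in sh-*Etv5* and fell by 0.68. *Slc35a2* and *Slc35c1* thus moved in opposite directions, while *Slc35c2*, of the same Slc35c subfamily, rose by 0.30 (limma adjusted p = 4.34e-05). *Slc35a4* was the most abundant of the family in sh-NC, at 75.1, 72.2 and 72.2 RPKM in sh-NC and 45.1, 44.3 and 41.9 RPKM in sh-*Etv5* (fell by 0.73), and 12% of its 50-base stretches are shared with *Gm5866*. The CMP-sialic acid carrier *Slc35a1* was not called (-0.08, 95% interval -0.22 to 0.07). *Slc35b4* rose by 0.16 although its libraries overlapped between groups, which no other called member did, and its call was lost without any 1 of sh-NC libraries 1 and 2 and sh-*Etv5* libraries 2 and 3 (limma adjusted p = 0.0505 to 0.0924), with no level filter (0.0711) and after rescaling to the same sum (log2 fold change 0.11, limma adjusted p = 0.135).

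Inorganic ion and proton carriers were divided, with 8 of 19 tested members higher, 5 lower and 6 not called. *Slc20a1*, a sodium-phosphate importer, stood at 29.1, 28.4 and 29.1 RPKM in sh-NC and at 65.0, 66.4 and 65.2 RPKM in sh-*Etv5* (2.27-fold, log2 fold change 1.16, limma adjusted p = 2.25e-10), and 13.1% of its exonic bases belong to other genes as well. *Slc20a2*, its paralog, fell by 0.26. Among potassium-chloride exporters, *Slc12a4* rose from 16.7, 16.3 and 16.7 RPKM to 34.3, 34.2 and 30.3 RPKM (0.95) and *Slc12a7*, another gene with ETS letters before a start, from 7.27, 8.46 and 7.75 RPKM to 13.1, 13.7 and 11.9 RPKM (0.66). The importer of sodium, potassium and chloride, *Slc12a2*, fell by 0.73, from 6.10, 6.47 and 6.53 RPKM to 3.44, 3.46 and 3.46 RPKM.

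Sodium-proton exchangers of the Slc9 family moved in both directions. *Slc9a8* of the Golgi stood at 8.36, 8.53 and 8.20 RPKM in sh-NC and at 6.75, 7.42 and 6.33 RPKM in sh-*Etv5* and fell by 0.26 (limma adjusted p = 0.00291). *Slc9a4* rose by 0.60, and 21.3% of its exonic bases belong to other genes as well. The scaffold protein gene *Slc9a3r1* rose by 0.69, from 10.6, 10.7 and 11 RPKM to 18.0, 17.1 and 18.8 RPKM, and *Slc9a3r2* passed the rule through sh-NC alone, at 1.25, 1.47 and 1.37 RPKM against 0.561, 0.522 and 0.647 RPKM. The mitochondrial sodium-calcium exchanger *Slc8b1* rose by 0.67, and the anion carrier *Slc26a11* passed through sh-*Etv5* alone, at 0.607, 0.779 and 0.565 RPKM against 2.23, 2.35 and 2.22 RPKM.

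Vitamin, heme and acetyl-CoA carriers comprised 7 tested members, of which 4 rose, 2 fell and 1 was not called. *Slc48a1*, which returns heme from the phagolysosome to the cytosol after macrophages digest red cells, stood at 12.5, 12.4 and 11.6 RPKM in sh-NC and at 20.3, 19.0 and 19.0 RPKM in sh-*Etv5* (log2 fold change 0.63, limma adjusted p = 4.84e-07). *Slc19a1*, the reduced folate carrier, stood at 45.0, 42.7 and 41.5 RPKM in sh-NC and at 35.5, 33.9 and 33.7 RPKM in sh-*Etv5* and fell by 0.32. *Slc46a1*, the proton-coupled folate carrier, passed the rule through sh-*Etv5* alone, at 0.755, 0.831 and 0.564 RPKM against 2.01, 2.07 and 2.01 RPKM, as did the lysosomal *Slc46a3*, at 0.241, 0.271 and 0.336 RPKM against 1.25, 1.82 and 1.49 RPKM. The thiamine carrier *Slc19a2* rose by 0.48 and the riboflavin carrier *Slc52a2* by 0.29. The ascorbate carrier *Slc23a2* was not called, at 19.5, 19.1 and 19.5 RPKM against 18.9, 20.6 and 18.7 RPKM (0.00, 95% interval -0.10 to 0.10).

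**Figure D4:**
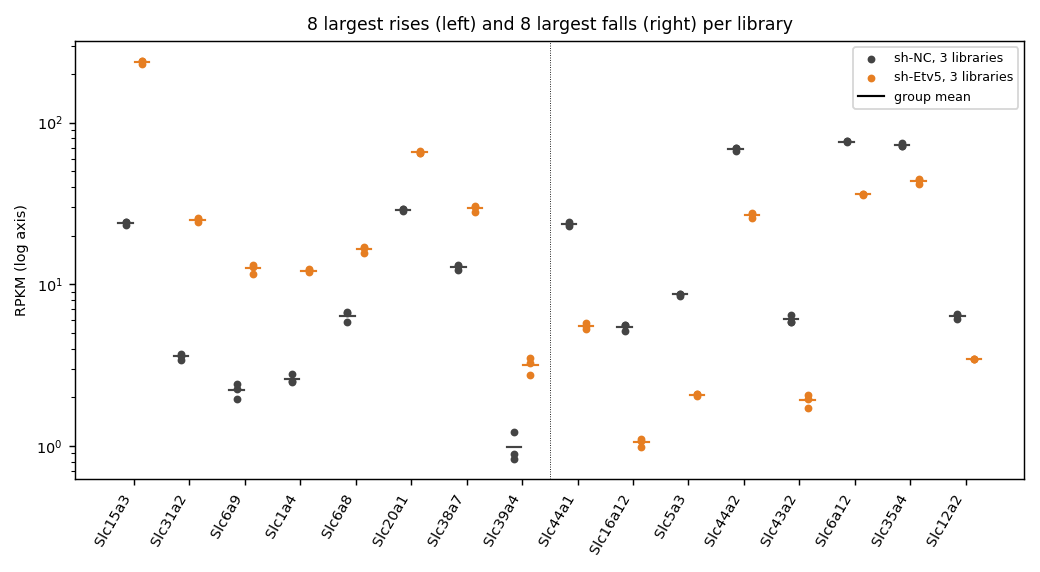
RPKM (log axis) of the 8 members with the largest called rises (left) and the 8 with the largest called falls (right), with 1 point for each of 3 sh-NC and 3 sh-Etv5 libraries and a bar for the group mean. The groups do not overlap for any of these genes, and rises reach 9.90-fold (Slc15a3) while the falls run from Slc44a1 (-1.91) to Slc12a2 (-0.73) on the log2(RPKM + 1) scale.

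Of the members at the edge of the level rule, *Slc2a4rg-ps* (third-highest library 1.04 RPKM), *Slc22a4* (1.05) and *Slc24a3* (1.12) lay just inside. *Slc14a1* (0.960), *Slc22a21* (0.909) and *Slc45a3* (0.857) lay just outside. The urea transporter *Slc14a1* stood at 1.14, 1.13 and 0.960 RPKM in sh-NC and at 0, 0.0114 and 0.0271 RPKM in sh-*Etv5*, a wide difference that the rule left out of the members.

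Other genes with a solute carrier number but another symbol, such as the cystine exporter *Ctns* and the organic anion carriers, were read from a list of 49. Of the 26 tested, 9 were higher, 8 lower and 9 not called, with a median log2 fold change of 0.04. *Nipa1*, a magnesium carrier, had the largest rise on the list (0.64) and *Sfxn2*, a mitochondrial carrier, the largest fall (-0.77).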

How the data were processed

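RNA of 6 Raw264.7 libraries was sequenced by the authors from Illumina TruSeq RNA libraries. The authors deposited RPKM values, 1 per gene symbol and library, taken from coverage tracks and without a log transformation, and the submitters' processing notes name build mm10. The aligner, the annotation and the use of strand are not given in the sources used here, so reads of overlapping genes may be counted for each. RPKM hides the absolute depth and allows no counting interval. From the lowest values, libraries had 0.897 to 1.06 times the depth of the first sh-NC library, read from 23 to 48 of 574 to 698 low genes that agreed on a ratio.

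Groups and replicate numbers came from the sample labels. Of all 24786 symbols, 10738 with at least 1 RPKM in at least 3 of 6 libraries entered limma 3.58.1 in R 4.3.3 on log2(RPKM + 1) (eBayes with trend, two-sided, no covariate), with Benjamini-Hochberg adjustment over all of them. The fit was tested on simulated data in which 200 of 10738 genes changed by 1 on the log2 scale. It recovered 194 of them and called 10 unchanged genes. That setting does not cover the smaller and more frequent changes of these data. Annotation came from GENCODE M21 on GRCm38, in which all 123 members were found, and promoters from RefSeq on GRCm38.p6, which matched 93 members. Sequence steps used Python 3.11.15, pandas 2.3.3 and NumPy 2.4.6.

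The members, substrate groups and lists were chosen with earlier results of these data known. Members named by rule are the 12 largest called rises and 12 largest called falls without overlap, the most abundant and the most changed tested member of each substrate group, the members that passed through 1 group alone, those nearest the threshold, and *Etv5*. Some members that the rule covers are not reported here. Other members were named for their role within a family after their values were seen. Alternatives were pseudocount 0.1, no filter, a mean of at least 5 RPKM, rescaling to the same sum, quantile normalization, no trend, a replicate block, stricter thresholds and each library left out.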

Additional observations from a re-analysis of the deposited data

How the results depend on the processing

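No called member changed sign in any alternative. At an adjusted p under 0.05, 81 of the 93 calls held in every refit that tested the member. The refit on genes with a mean of at least 5 RPKM tested 93 of the 116 members and called 51 higher and 28 lower. The counts of members higher and lower were 53 and 38 after rescaling to the same sum, 58 and 37 after quantile normalization, 55 and 31 with no filter and 58 and 35 with a pseudocount of 0.1. Rescaling shifted the median log2 fold change of all genes by -0.054, and quantile normalization by -0.024. Shares over all genes under each alternative are not given here, so these counts do not set the members apart from other genes. Requiring an absolute log2 fold change over 1 left 9 members higher and 6 lower. Among the 10340 genes expressed in both groups it left 497 higher and 283 lower. Over all 10738 genes in the fit, which include genes that passed through 1 group alone, it left 991 of 7974 called genes. At a mean of at least 5 RPKM, the lower counts of the monocarboxylate, nucleoside and vitamin groups were each 1, since fewer members were tested, and quantile normalization called 1 non-transporter lower, where the cause was not tested. Leaving out 1 library gave 53 to 57 members higher and 30 to 36 lower. Replicate numbers did not pair the libraries, since deviations of same-numbered libraries correlated at 0.0739, -0.071 and -0.0352, and 2 of 6 libraries correlated best with their own number. With a replicate block 58 members were higher and 34 lower, and the call of *Slc39a9* was lost. Absolute depth is unknown, so differences of genes near 1 RPKM carry an error that cannot be computed here beyond the spread of 3 libraries.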
